A study of Mus musculus with 2 samples.

Results

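The genes described here are 10 members of the BCL2 family, which were chosen by name and measured in both libraries out of 32285 genes in the count tables. They comprised 5 survival genes (*Bcl2*, *Bcl2l1*, *Mcl1*, *Bcl2a1a* and *Bcl2a1b*), 3 genes of the BH3-only group (*Bcl2l11*, *Bbc3* and *Bid*) and 2 effectors (*Bax* and *Bak1*). Their UMI counts were followed through the immune cells of the infarcted neonatal mouse heart, with (WT) and without (*Lyve1* KO) a working *Lyve1* gene. The mice underwent myocardial infarction (MI) at P2 and both genotypes were examined 7 days after it, when they were 9 days old. Live CD45+ cells were sorted from 5 pooled hearts per genotype, so that each genotype was a single library from a 10x 5′ kit, and all 10 hearts were infarcted. The count tables used here do not assign cells to hearts, which the study separated by sequence variants in the reads. From these tables there was thus 1 library per genotype with no replicate check and no test, and intervals given below are 95% intervals that cover counting error only.

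Proteins of the BCL2 family decide at the mitochondrial outer membrane whether a cell enters intrinsic apoptosis. The effectors BAX and BAK form pores that release cytochrome c, the survival proteins hold them in check, and the BH3-only proteins relay stress by occupying the survival proteins or by engaging the effectors. Immune cell types are known to rely on different survival members, with short-lived MCL1 and A1 (the product of the *Bcl2a1* genes) prominent in granulocytes and BCL2 in resting lymphocytes.

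The *Bcl2a1* genes need a caution that the other members do not. Mice carry several copies on chromosome 9, and in the GENCODE vM21 annotation of GRCm38 *Bcl2a1a* lies at chr9:88956900-88962419 on the plus strand, *Bcl2a1b* at chr9:89199209-89207827 on the plus strand and the further copy *Bcl2a1d* at chr9:88723285-88731914 on the minus strand. Each has 2 exons and a coding length of 516 bases without the stop codon. The coding sequences differed at 11 of 516 positions between *Bcl2a1a* and *Bcl2a1b* (97.9% identity), at 7 between *Bcl2a1a* and *Bcl2a1d* and at 6 between *Bcl2a1b* and *Bcl2a1d*. The first 60 coding bases held 6 of the 12 positions at which the 3 copies were not all alike, and are shown from GENCODE with those positions in capitals because reads over them tell the copies apart.
Bcl2a1a: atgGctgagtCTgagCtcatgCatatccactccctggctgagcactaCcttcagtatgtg
Bcl2a1b: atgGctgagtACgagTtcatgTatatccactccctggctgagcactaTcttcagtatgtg
Bcl2a1d: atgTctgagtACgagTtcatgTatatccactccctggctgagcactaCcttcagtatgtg

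Of all stretches of 90 bases in the transcript, 47.0% of those of *Bcl2a1a*, 36.1% of those of *Bcl2a1b* and 61.6% of those of *Bcl2a1d* also occurred in another of these copies without a mismatch. Within the first 300 bases of the transcript, the end read by a 5′ kit, these shares were lower, at 34.1%, 13.7% and 29.9%. A read from a shared stretch cannot be given to a single copy, and the values of the copies are therefore uncertain as a split between them. The copies also resembled each other upstream of their RefSeq start sites. All 10 members had an entry in the RefSeq promoter table of GRCm38.p6, and the 250 bases before the start site are shown for *Bcl2a1a* (chr9:88956670-88956919, plus strand) and *Bcl2a1b* (chr9:89199023-89199272, plus strand), the copies that are members and were both lower in KO neutrophil-like cells below. Capitals mark the longest run of bases that is identical in *Bcl2a1a*, *Bcl2a1b* and *Bcl2a1d*, which is 84 bases long.
Bcl2a1a promoter: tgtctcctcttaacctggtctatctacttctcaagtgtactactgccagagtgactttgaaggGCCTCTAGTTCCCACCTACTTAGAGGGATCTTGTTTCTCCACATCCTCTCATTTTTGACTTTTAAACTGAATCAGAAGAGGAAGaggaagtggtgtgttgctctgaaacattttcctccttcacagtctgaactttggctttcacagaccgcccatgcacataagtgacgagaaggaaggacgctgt
Bcl2a1b promoter: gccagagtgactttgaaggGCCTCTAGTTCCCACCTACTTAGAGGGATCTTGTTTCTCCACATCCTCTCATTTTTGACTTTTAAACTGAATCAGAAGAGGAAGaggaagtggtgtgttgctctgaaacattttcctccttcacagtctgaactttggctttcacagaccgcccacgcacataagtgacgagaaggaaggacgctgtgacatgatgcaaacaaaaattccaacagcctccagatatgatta

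The run ended 103 bases before the RefSeq start site of *Bcl2a1a* and 147 bases before that of *Bcl2a1b*, so the RefSeq start sites are offset against the shared sequence. The GENCODE gene starts (chr9:88956900 and chr9:89199209) lie before these RefSeq sites, so the ends of both printed stretches fall inside the GENCODE gene spans. Counted from the GENCODE starts, the run ended equally far upstream in both copies. The other members differed in build. *Mcl1* is short (chr3:95658788-95663176, plus strand), with 77.9% of its span exonic, whereas *Bcl2* (chr1:106538178-106714274, minus strand) spans 176097 bases, of which 5.20% are exonic. Whether intronic reads were counted is not given in the sources used here, and other genes overlap *Bcl2*, *Bid* and *Bak1* on the opposite strand.

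The libraries held 4187 WT and 3391 KO cells after filtering, with a median of 11106 and 12856 UMIs per cell. *Lyve1* itself was at 247 CPM (UMIs of a gene per 1000000 UMIs of the same cells) over all WT cells and at 13.1 CPM over all KO cells. *Ptprc*, which encodes CD45, had a UMI in 86.7% of WT and 90.1% of KO cells. Cells were grouped in 29 clusters without use of the 10 genes. The 12 groups compared had at least 50 cells in each library and comprised 9 classes named from their markers and 3 clusters called by a leading gene. The Saa3-led cluster also expressed *Marco* and *Arg1*, the Ccl8-led cluster combined *Lyve1* and *Folr2* with cardiomyocyte genes, and the Nkg7-led cluster combined cytotoxic genes with *Cd8b1*. The remaining unnamed clusters, most of whose cells were of low depth (median 1332 UMIs per WT cell and 962 per KO cell), held 901 WT and 611 KO cells and were left out, as were 4 named classes with too few cells. Thymocyte-like cells carried *Rag1* and *Dntt*, and 9 barcodes occurred in both libraries.

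**Figure D1:**
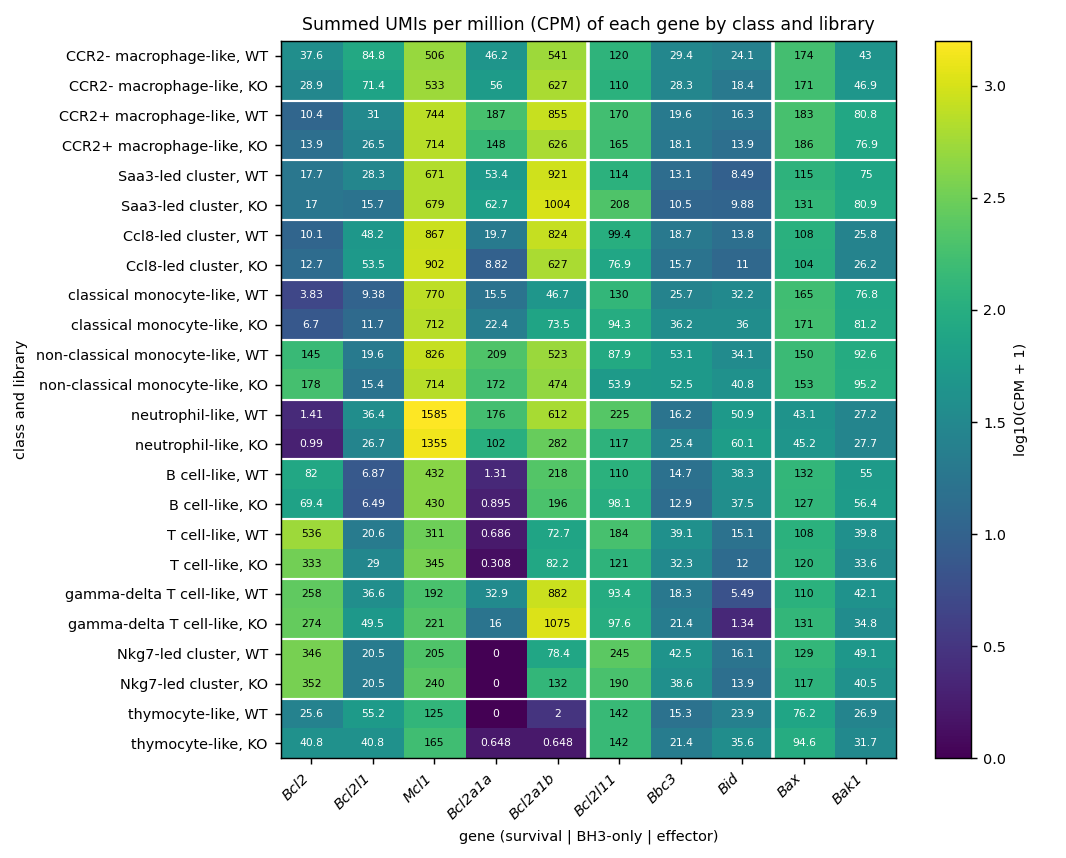
Level of each gene (columns, ordered as survival, BH3-only and effector genes) in each class and library (rows), as CPM; colours are on a log10(CPM + 1) scale and the printed numbers are CPM. *Mcl1* was highest in neutrophil-like cells (1585 CPM in WT, 1355 in KO) and *Bcl2* lowest there (1.41 and 0.990 CPM).

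Each survival gene had its own distribution over the classes, and the highest class was the same in both libraries for 7 of the 10 genes. The lowest was the same for all 10, with a tie for *Bcl2a1a* in WT, where thymocyte-like cells and the Nkg7-led cluster both had no UMI. These are ranks of CPM, without a share over all genes. For *Bbc3* and *Bak1* neither the highest nor the lowest group was separated from its neighbour in either library. *Mcl1*, which encodes a rapidly turned over survival protein, was at 1585 CPM (WT) and 1355 CPM (KO) neutrophil-like cells. Next came the Ccl8-led cluster with 867 and 902 CPM, and the intervals of these neighbours did not overlap in either library. The lowest level was in thymocyte-like cells (125 and 165 CPM), so the range over the classes was 12.6-fold in WT and 8.24-fold in KO. *Mcl1* was thus a transcript of all classes, with its peak in the neutrophil-like class.

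*Bcl2*, the founding survival gene, was lowest where *Mcl1* was highest. Its level was 536 CPM (WT) and 333 CPM (KO) T cell-like cells, 346 and 352 CPM in the Nkg7-led cluster, and 258 and 274 CPM in gamma-delta T cell-like cells. T cell-like cells were above the Nkg7-led cluster in the WT library alone, and each of the latter groups was above its neighbour, with gamma-delta T cell-like cells above the next class, the non-classical monocyte-like cells (145 and 178 CPM). Neutrophil-like cells had 1.41 and 0.990 CPM, from 4 UMIs in 350 WT cells and 3 UMIs in 337 KO cells. Cells were thinned to 3700 UMIs each, and cells below the thinned depth were left out of thinned shares, here and below. Of the cells kept, 0.949% of WT and 0.641% of KO neutrophil-like cells had a *Bcl2* UMI, against 49.1% and 48.5% of T cell-like cells. Without thinning, over all cells, the shares were 1.14% and 0.593% (median 7661 and 7946 UMIs) and 57.9% and 67.0% (median 6606 and 11452 UMIs). The contrast among monocytes was also wide, since classical monocyte-like cells had 3.83 and 6.70 CPM.

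*Bcl2l1*, which encodes BCL-XL, was highest in CCR2- macrophage-like cells, at 84.8 CPM (WT) and 71.4 CPM (KO). The Ccl8-led cluster followed with 48.2 and 53.5 CPM, and thymocyte-like cells had 55.2 and 40.8 CPM; these 2 groups were not separated in either library. B cell-like cells had the lowest level (6.87 and 6.49 CPM). CCR2+ macrophage-like cells had 31.0 and 26.5 CPM, so that the macrophage classes differed in *Bcl2l1* in both libraries in the same direction.

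*Bcl2a1b* was highest in gamma-delta T cell-like cells (882 CPM in WT, 1075 in KO) and in the Saa3-led cluster (921 and 1004 CPM), which were not separated in either library. In macrophages it was at 855 and 626 CPM for the CCR2+ class and at 541 and 627 CPM for the CCR2- class. Its level was 46.7 and 73.5 CPM in classical monocyte-like cells and 2.0 and 0.648 CPM in thymocyte-like cells. The gene was therefore high in gamma-delta T cell-like cells and low in the other T-lineage classes, with 72.7 and 82.2 CPM in T cell-like cells. *Bcl2a1a* was at 209 and 172 CPM in non-classical monocyte-like, 187 and 148 in CCR2+ macrophage-like and 176 and 102 in neutrophil-like cells. It had no UMI in the Nkg7-led cluster in either library, where 3 UMIs would be 2.20 CPM (WT) and 1.16 CPM (KO). Gamma-delta T cell-like cells, which were high in *Bcl2a1b*, had 32.9 and 16.0 CPM of *Bcl2a1a*.

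Among the BH3-only genes, *Bcl2l11*, which encodes BIM, had 2.78-fold between its highest and lowest class in WT and 3.86-fold in KO. It was at 245 and 190 CPM in the Nkg7-led cluster, at 225 and 117 CPM in neutrophil-like cells, and at 87.9 and 53.9 CPM in non-classical monocyte-like cells. *Bbc3*, which encodes the p53 target PUMA, was highest in non-classical monocyte-like cells (53.1 and 52.5 CPM) and lowest in the Saa3-led cluster (13.1 and 10.5 CPM). *Bid*, which links death receptors to the mitochondrial pathway, was highest in neutrophil-like cells (50.9 and 60.1 CPM) and lowest in gamma-delta T cell-like cells, where 3 WT UMIs gave 5.49 CPM and 1 KO UMI gave 1.34 CPM.

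Of the effectors, *Bax* was at 183 and 186 CPM (CCR2+) and 174 and 171 CPM (CCR2-) in the macrophage classes and at 165 and 171 CPM in classical monocyte-like cells, which were not separated from one another as neighbours. Neutrophil-like cells had the lowest *Bax* level, 43.1 and 45.2 CPM, below thymocyte-like cells (76.2 and 94.6 CPM) in both libraries. *Bak1* was highest in non-classical monocyte-like cells (92.6 and 95.2 CPM) and lowest in the Ccl8-led cluster (25.8 and 26.2 CPM). As a class, neutrophil-like cells were thus low in both effectors (27.2 and 27.7 CPM of *Bak1*) while they were highest in *Mcl1*. Their clusters differed. *Bax* was at 98.6 and 121 CPM in the Acod1-led, 37.2 and 46.0 in the Asprv1-led and 6.14 and 13.3 in the Ngp-led cluster. *Mcl1* was at 2353 and 2069, 1703 and 1535, and 332 and 520 CPM in the same order.

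**Figure D2:**
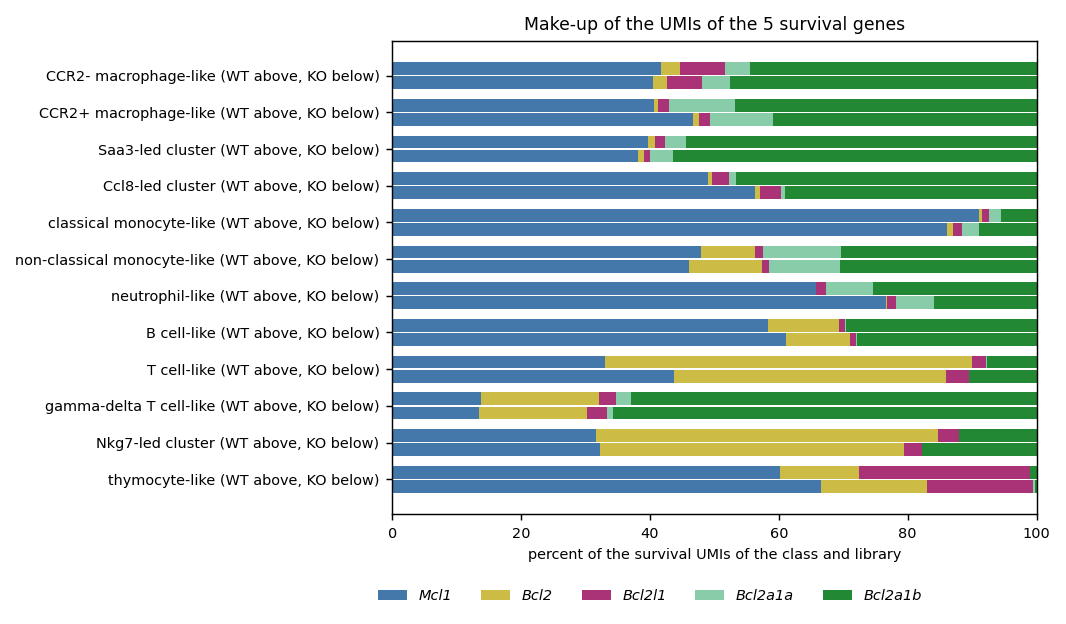
Share of each survival gene in the summed UMIs of the 5 survival genes (horizontal axis, percent) for each class, with the WT library as the upper and the KO library as the lower bar. Classical monocyte-like cells were mostly *Mcl1* (91.1% in WT, 86.2% in KO) and gamma-delta T cell-like cells mostly *Bcl2a1b*.

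Shares of the survival UMIs do not depend on the total of a class, although UMIs are not corrected for how well each transcript is captured. *Mcl1* made up 91.1% (90.2 to 91.9) of them in WT and 86.2% (85.2 to 87.1) in KO classical monocyte-like cells, and 65.7% (64.6 to 66.9) and 76.7% (75.5 to 77.8) in neutrophil-like cells. *Bcl2a1a* and *Bcl2a1b* together made up 65.3% and 66.7% in gamma-delta T cell-like cells and 48.3% and 51.9% in CCR2- macrophage-like cells. *Bcl2l1* reached 26.5% (23.1 to 30.2) in WT and 16.5% (12.9 to 20.6) in KO thymocyte-like cells, against 6.97% and 5.42% in CCR2- macrophage-like cells. With the UMIs of *Bcl2a1a* and *Bcl2a1b* summed, the largest share was held by the same gene in both libraries in 11 of 12 groups. The exception was the T cell-like class, where *Bcl2* held 57.0% (54.3 to 59.6) in WT and 42.2% (40.3 to 44.1) in KO and *Mcl1* held 33.0% and 43.7%. This exception was absent with no doublet left out (12 of 12 groups alike), with all variable genes used for clustering (11 of 11) and without cell-cycle regression (10 of 10). Taken as separate genes, CCR2+ macrophage-like cells differed too, with *Bcl2a1b* at 46.8% in WT and 40.9% in KO and *Mcl1* at 40.7% and 46.7%. With *Bcl2a1d* added to the *Bcl2a1* UMIs, the Ccl8-led cluster differed too, with *Bcl2a1* at 50.5% in WT and 42.5% in KO and *Mcl1* at 46.4% and 53.6%.

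The comparison of KO with WT asked whether these genes were changed in immune cells of hearts without *Lyve1*. Of 120 pairs of a gene and a class, 101 had at least 100 UMIs over both libraries, and 13 of these were past 1.5-fold (5 higher and 8 lower in KO), or 12.9%. Over all genes and the same 12 groups, 6.28% of 81313 pairs were past 1.5-fold. The interval of all 13 ratios excluded 1, which is likely in advance for pairs picked at 1.5-fold with at least 100 UMIs. That of 45 of the 101 pairs excluded 1, and the share over all genes was not computed for this count. These intervals count UMIs as independent. The UMIs were not spread evenly over cells: 50% of the *Bcl2* UMIs of T cell-like cells came from 11 of 159 WT and 29 of 264 KO cells. The intervals therefore understate the error even within a library.

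**Figure D3:**
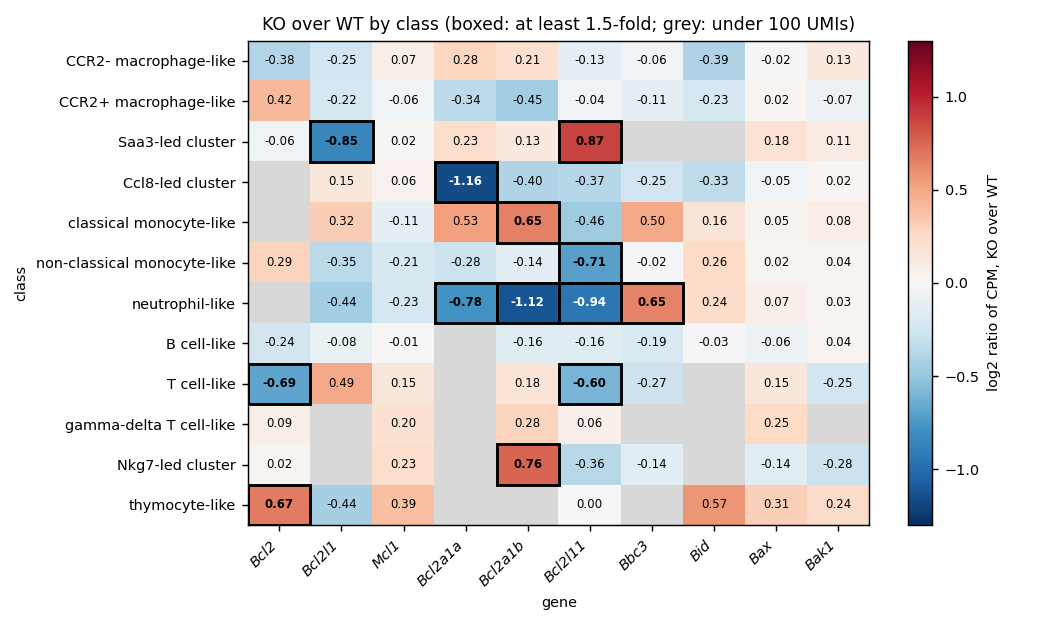
Log2 ratio of CPM, KO over WT, for each gene (columns) and class (rows). Boxes mark the 13 pairs past 1.5-fold and grey cells had under 100 UMIs; *Mcl1*, *Bax*, *Bak1* and *Bid* had no boxed cell.

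Large ratios fell on 6 of the 10 genes. *Bax* stayed within 1.25-fold in all 12 groups (0.907 to 1.24), *Bak1* in all 11 with enough UMIs (0.826 to 1.18) and *Mcl1* in 11 of 12 (0.855 to 1.31). *Bid* was not past 1.5-fold in any of 8 groups (0.763 to 1.49). *Bcl2l11* was past it in 4 groups of 12 and *Bcl2a1b* in 3 of 11. In the groups compared, the effectors and *Mcl1* thus had close levels in the libraries. The larger ratios were those of *Bcl2a1a*, *Bcl2a1b*, *Bcl2l11*, *Bcl2*, *Bcl2l1* and *Bbc3*. The share of all genes within 1.25-fold was not computed, so this closeness has no background. With 6.28% of all pairs past 1.5-fold, a gene with 8 to 12 pairs can have none past without being unusual. Within the Ngp-led neutrophil-like cluster *Mcl1* was past 1.5-fold (332 and 520 CPM, ratio 1.57), also without a background.

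In CCR2- macrophage-like cells, the class with the most UMIs, none of the 10 genes was past 1.5-fold, where 4.26% of all genes tested were. *Bcl2* was at 37.6 CPM (WT) and 28.9 CPM (KO) (ratio 0.768, interval 0.663 to 0.887) and *Bcl2l1* at 84.8 and 71.4 CPM (0.842, 0.767 to 0.923). In the Gm26917-led cluster of this class, of reduced depth (median 6010 UMIs in WT, 4618 in KO), *Bcl2l11* was at 437 and 224 CPM and *Bcl2* at 182 and 65.6 CPM, whereas the Fcrls-led cluster, the largest of the class, had 119 and 107 CPM of *Bcl2l11* and 30.1 and 24.9 CPM of *Bcl2*. *Bcl2l1* (226 and 121 CPM, ratio 0.534) and *Bcl2a1b* (253 and 163 CPM, 0.645) were past 1.5-fold in this Gm26917-led cluster too. Their ratios in the Fcrls-led cluster were 0.858 and 1.18. Of the other members in the Gm26917-led cluster, *Mcl1* had a ratio of 0.696 and the rest had under 100 UMIs. *Bax* was at 27.1 (WT) and 25.4 CPM (KO) there, against 176 and 175 CPM in the Fcrls-led cluster. *Bak1* was at 2.01 and 4.23 CPM, against 41.6 and 44.9 CPM. Shares of all genes were not computed for single clusters, here or below, so ratios within clusters have no background. In the Tk1-led cluster of this class, *Bcl2a1a* was at 20.9 and 33.1 CPM (1.59, 1.18 to 2.13). *Bid* was at 28.1 and 17.9 CPM there (0.639, 0.440 to 0.908), and the other members were not past 1.5-fold. Taken as a class, CCR2+ macrophage-like cells had no gene of the 10 past 1.5-fold either (5.34% of all genes), nor had B cell-like cells (5.23%). The B cell-like clusters differed, with a *Bcl2* ratio of 0.624 (0.517 to 0.753) in the Ms4a1-led, 1.08 in the Vpreb3-led and 1.67 (1.27 to 2.21) in the Gm26917-led cluster of reduced depth. *Bcl2l11* was lower in that Gm26917-led cluster (338 and 150 CPM, 0.443, 0.305 to 0.634). *Bcl2a1b* had a ratio of 0.603 in the Vpreb3-led cluster (112 and 67.6 CPM). In gamma-delta T cell-like cells, 5 members had enough UMIs and none was past 1.5-fold (9.97% of all genes).

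Neutrophil-like cells had the most pairs past 1.5-fold, 4 of 9, against 9.29% of all genes in this class. *Bcl2a1b* was at 612 CPM (WT) and 282 CPM (KO) (ratio 0.460, 0.424 to 0.50), *Bcl2a1a* at 176 and 102 CPM (0.580, 0.502 to 0.670) and *Bcl2l11* at 225 and 117 CPM (0.523, 0.458 to 0.596). *Bcl2a1d*, which shares sequence with the former, was at 237 and 92.4 CPM (0.390, 0.338 to 0.450). *Bbc3* was higher, at 16.2 and 25.4 CPM (1.56, 1.07 to 2.31), from 46 and 77 UMIs. The survival and BH3-only genes *Bcl2a1b* and *Bcl2l11*, which act in opposite directions, were thus both lower in the KO library.

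The make-up of the class moved with these ratios. The neutrophil-like class consisted of 3 clusters, and the Acod1-led cluster (with *Il1rn* and *Csf1*) held 79 of 350 WT cells (22.6%, 18.3 to 27.3) and 44 of 337 KO cells (13.1%, 9.65 to 17.1). In that cluster *Bcl2a1b* was at 2931 CPM (WT) and 2208 CPM (KO), against 116 and 123 CPM in the Asprv1-led cluster, which held 249 and 265 cells. *Bcl2a1a* was likewise at 824 and 818 CPM in the Acod1-led and 39.4 and 42.1 CPM in the Asprv1-led cluster. Within the Asprv1-led cluster the ratio was 1.06 (0.877 to 1.27) for *Bcl2a1b*, 1.07 (0.774 to 1.48) for *Bcl2a1a* and 0.927 (0.760 to 1.13) for *Bcl2l11*. Within the Acod1-led cluster it was 0.753 (0.684 to 0.829) for *Bcl2a1b*, 0.993 (0.839 to 1.17) for *Bcl2a1a* and 0.648 (0.532 to 0.786) for *Bcl2l11*, which was at 820 and 531 CPM. The ratios of these 3 genes were therefore not past 1.5-fold in the main cluster, and of the 3 only *Bcl2l11* was past it in the Acod1-led cluster. *Bbc3* differed from them, with a ratio of 1.69 (1.07 to 2.72) in the Asprv1-led cluster, from 30 and 58 UMIs. *Bcl2l1* was past 1.5-fold in the Asprv1-led cluster too (0.583, 0.381 to 0.884), from 60 and 40 UMIs.

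**Figure D4:**
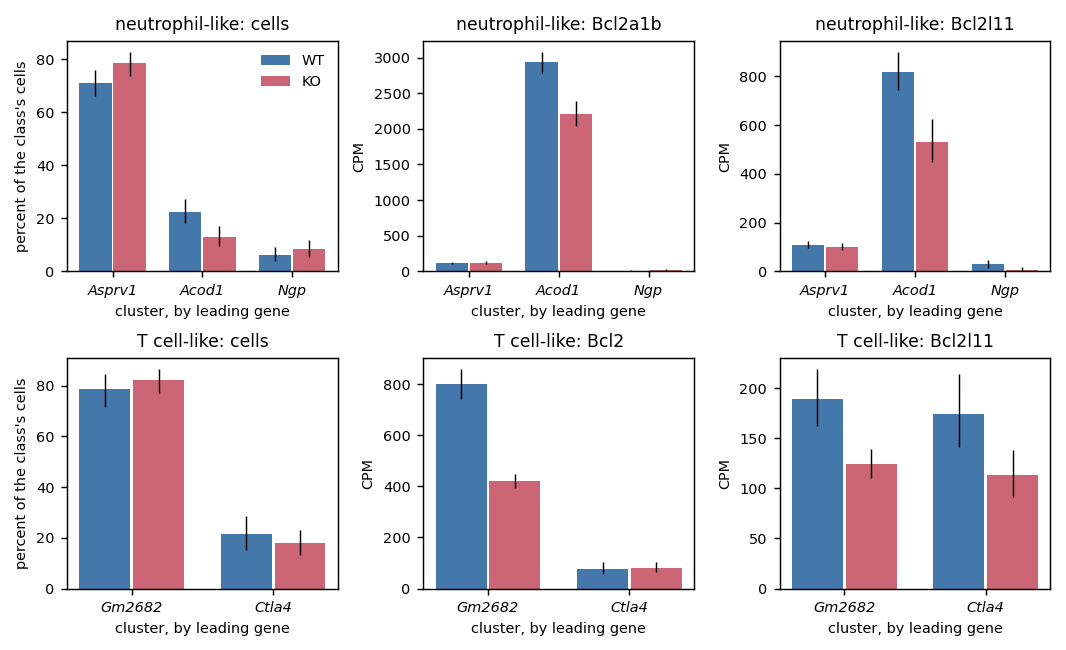
Share of the class's cells in each cluster (left) and CPM of the named gene per cluster (middle and right) for neutrophil-like cells (upper row) and T cell-like cells (lower row), with WT in blue, KO in red and 95% intervals as bars. The Acod1-led cluster held a smaller share of KO cells (13.1% against 22.6%) and had the higher *Bcl2a1b* level, and the *Bcl2* ratio was 0.526 in the Gm2682-led and 1.07 in the Ctla4-led T cell cluster.

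In T cell-like cells 2 of 8 genes were past 1.5-fold, with 9.09% of all genes. *Bcl2* was at 536 CPM (WT) and 333 CPM (KO) (ratio 0.622, 0.567 to 0.683) and *Bcl2l11* at 184 and 121 CPM (0.660, 0.564 to 0.774). The *Bcl2* ratio was not past 1.5-fold with no doublet left out (0.721), with all variable genes used for clustering (0.718), without cell-cycle regression (0.712) or in male cells. That of *Bcl2l11* was past it in 4 of 13 alternatives, and was for example 0.702 when scaled by the median ratio of genes and 0.729 with no doublet left out. The *Bcl2* difference lay in the Gm2682-led cluster (with *Lef1*), at 800 and 421 CPM (0.526, 0.478 to 0.579). In the Ctla4-led cluster, which expressed *Foxp3*, the regulatory T cell factor, *Bcl2* was at 77.0 and 82.2 CPM (1.07, 0.716 to 1.61). *Bcl2l11* was lower in both clusters, with ratios of 0.656 and 0.648. *Bcl2a1b* was higher in the Ctla4-led cluster (158 and 275 CPM, 1.75, 1.35 to 2.27). The WT cells of this class were shallower, with a median of 6606 UMIs against 11452 in KO, and the part of depth in the ratios was not tested. The thinned share of cells with a *Bcl2* UMI was 49.1% (39.5 to 58.7) in WT and 48.5% (42 to 55.1) in KO, whereas thinned to 1000 UMIs it was 33.5% (26.2 to 41.5) and 24.1% (19.1 to 29.8).

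The Saa3-led cluster had 2 of 8 genes past 1.5-fold, with 8.99% of all genes. *Bcl2l11* was at 114 CPM (WT) and 208 CPM (KO) (ratio 1.83, 1.6 to 2.10), from 321 UMIs in 59 cells and 674 UMIs in 60 cells. *Bcl2l1* was at 28.3 and 15.7 CPM (0.557, 0.384 to 0.801). A BH3-only gene was thus higher and a survival gene lower, while *Mcl1* (671 and 679 CPM) and *Bcl2a1b* (921 and 1004 CPM) were close. Of 4 further BH3-only genes with enough UMIs there, *Pmaip1*, which encodes NOXA, was past 1.5-fold (54.5 and 88.9 CPM, 1.63, 1.34 to 2.0) and the others were not, with ratios down to 0.670 and a median log2 ratio of -0.12 over the 4. The death receptor gene *Fas* was higher as well (35.0 and 63.3 CPM, 1.81, 1.42 to 2.32), 1 of 5 death receptor pathway genes with enough UMIs.

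Monocyte classes differed in different genes. Classical monocyte-like cells had 1 of 9 genes past 1.5-fold, with 3.81% of all genes. *Bcl2a1b* was at 46.7 CPM (WT) and 73.5 CPM (KO) (1.57, 1.34 to 1.85), but a single KO cell held 93 of the 439 UMIs and without the top cell of each library the ratio was 1.34. Non-classical monocyte-like cells had 1 of 10 genes past 1.5-fold, with 4.59% of all genes. *Bcl2l11* was at 87.9 and 53.9 CPM (0.613, 0.511 to 0.735), and at 82.7 and 43.2 CPM in the Ace-led cluster (0.522, 0.423 to 0.643) but not lower in the Ldlrad3-led cluster of reduced depth (1.004, 0.681 to 1.49).

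In each of the remaining groups a single gene was past 1.5-fold, and a few cells held much of its UMIs. In the Nkg7-led cluster it was 1 of 7 genes, with 5.95% of all genes: *Bcl2a1b* was at 78.4 CPM (WT) and 132 CPM (KO) (1.69, 1.36 to 2.12), with 91 of 343 KO UMIs in a single cell and a ratio of 1.36 without the top cells. In the Ccl8-led cluster it was 1 of 9 genes, with 6.17% of all genes: *Bcl2a1a* was at 19.7 and 8.82 CPM (0.447, 0.290 to 0.675), and 2 KO cells held 50% of its 32 UMIs. Without the top cells the *Bcl2a1a* ratio was farther from 1, at 0.292, from under 100 UMIs. In thymocyte-like cells it was 1 of 7 genes, with 8.9% of all genes: *Bcl2* was at 25.6 and 40.8 CPM (1.59, 1.12 to 2.25), and at a ratio of 1.09 without the top cells. Thymocyte-like cells were also the class with the highest *Mcl1* ratio (1.31, 1.11 to 1.54). The thinned share with an *Mcl1* UMI was 37.6% in WT and 65.5% in KO, and these intervals did not overlap. This held for 1 of 120 pairs of a member and a group. The share over all genes was not computed, so this count has no background.

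**Figure D5:**
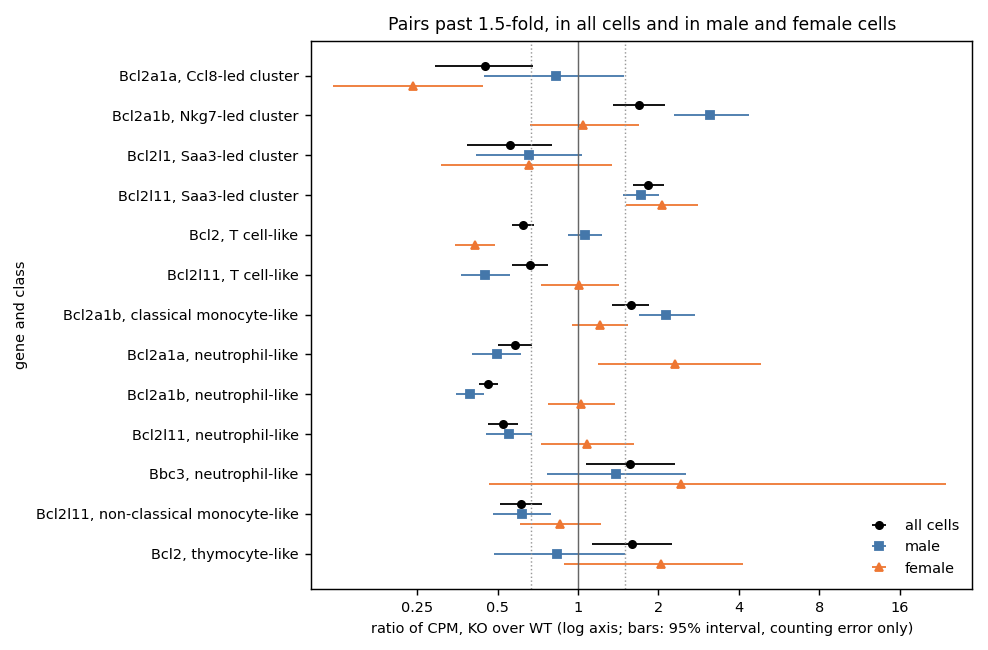
Ratio of CPM, KO over WT (log axis), for the 13 pairs past 1.5-fold, in all cells (black circles), male cells (blue squares) and female cells (orange triangles), with 95% intervals; dotted lines mark 1.5-fold. *Bcl2l11* in the Saa3-led cluster lay above 1.5-fold in both sexes, and 6 pairs lay on opposite sides of 1.

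Both libraries pooled male and female hearts, and cells could be taken as male or female from Y-linked transcripts and *Xist*. This gave 1982 and 1038 of 4187 cells in WT and 1435 and 984 of 3391 in KO. Cells with neither or both kinds of transcript were left out of the split. Of the neutrophil-like cells, 148 male and 26 female of 350 were kept in WT, and 110 and 35 of 337 in KO. Male and female cells come from different hearts, so the split compares separate sets of hearts within each library. Of the 13 pairs, 2 were past 1.5-fold in the same direction in both sexes, 10 in a single sex and 1 in opposite directions (*Bcl2a1a* in neutrophil-like cells, 0.497 in male and 2.31 in female cells). In all, 6 of the 13 had ratios on opposite sides of 1. These 13 pairs were picked from the same cells. Among all tested pairs of the members, 66 had at least 100 UMIs in each sex. Of these 66, 16 were past 1.5-fold in 1 sex alone, 1 in both sexes in the same direction and 0 in opposite directions. Shares over all genes were not computed for the sexes. *Bcl2l11* in the Saa3-led cluster had a ratio of 1.71 (1.47 to 2.01) in male and 2.06 (1.51 to 2.82) in female cells, at 123 and 211 CPM and at 90.9 and 187 CPM. *Bcl2l1* in the same cluster had ratios of 0.655 and 0.653, each from under 100 UMIs and with an interval that included 1.

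The T cell-like ratios and those of *Bcl2a1a*, *Bcl2a1b* and *Bcl2l11* in neutrophil-like cells were not shared by the sexes. *Bcl2* in T cell-like cells was at 340 CPM (WT) and 360 CPM (KO) male cells (1.06, 0.914 to 1.23) but at 643 and 265 CPM in female cells (0.413, 0.347 to 0.490), whereas *Bcl2l11* in the same class had a ratio of 0.449 in male and 1.01 in female cells. *Bcl2a1b* in neutrophil-like cells was at 811 and 320 CPM in male cells (0.394) and at 291 and 298 CPM in female cells (1.03, 0.771 to 1.37), the latter from 26 WT and 35 KO cells. The Acod1-led cluster, where *Bcl2a1b* was high, held 41 of 148 WT and 14 of 110 KO male cells. It held 4 of 26 WT and 6 of 35 KO female cells. The part of this make-up in the contrast of the sexes was not tested. Thymocyte-like cells came from different hearts in the 2 libraries, with 21 male and 109 female cells in WT and 50 male and 3 female cells in KO. With 1 pool per genotype, a difference of genotype and a difference between hearts cannot be told apart.

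A list of 48 further genes of apoptosis was followed in the same way. Of 365 pairs with enough UMIs, 10 were past 1.5-fold higher and 12 lower in KO (6.03%, beside 6.28% of all genes). None of the 35 pairs of the outer membrane channels (*Vdac1*, *Vdac2* and *Vdac3*) and of the 17 pairs of further effector and atypical family genes was past it. Of the further survival genes, *Bcl2a1d* was lower in neutrophil-like (0.390) and T cell-like cells (0.442) and higher in the Nkg7-led cluster (1.91). Of the inhibitors of apoptosis, *Birc3* was lower in neutrophil-like cells (381 and 252 CPM, 0.662), *Birc5* in T cell-like cells (0.658) and *Birc6* in gamma-delta T cell-like cells (0.659). *Cflar*, which encodes the caspase 8 inhibitor FLIP, was lower in neutrophil-like cells (153 and 102 CPM, 0.665) and *Apaf1*, the scaffold of the apoptosome, higher (45.2 and 68.3 CPM, 1.51). *Cycs*, which encodes cytochrome c, was at 258 and 137 CPM in the Ccl8-led cluster (0.533, 0.479 to 0.592), which also carried cardiomyocyte transcripts; their part was not tested. In CCR2- macrophage-like cells *Endog*, a mitochondrial nuclease, was lower (5.15 and 2.82 CPM, 0.547, 0.337 to 0.856). *Fas* was higher there (14.8 and 22.5 CPM, 1.52, 1.27 to 1.82), in the Saa3-led cluster and in thymocyte-like cells (1.75), and *Ddit3*, a stress-induced transcription factor, in T cell-like (1.75) and thymocyte-like cells (1.86).

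Among 12151 genes, those closest to each member in distribution over 9 named classes and both libraries (18 points that share libraries, Pearson correlation of log2(CPM + 10)) are given as a description. *Bcl2a1b* was closest to its copy *Bcl2a1d* (r = 0.95), then to *Relb* (0.93) and *Irak2* (0.89), and *Bcl2a1a* to *Tgm2* (0.98), *Rnf19b* (0.96) and *Gpr84* (0.92). *Mcl1* was closest to *Bcl10* (0.96), *Bcl2* to *Gm19684* (0.95), *Bcl2l1* to *Slc9a9* (0.83), *Bax* to *Gmppa* (0.96) and *Bak1* to *Tppp3* (0.95). The closest gene to *Bcl2l11* reached 0.76 (*Fam162a*), the lowest such value of the 10 genes. Among the members themselves, *Bax* and *Bak1* had the highest correlation (0.76), and *Bcl2* and *Bid* the lowest (-0.55).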

How the data were processed

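Single-cell RNA-seq libraries of sorted cells from 1 WT and 1 *Lyve1* KO pool were analysed. The deposited values are raw UMI counts per gene and barcode, made by the authors with Cell Ranger on mm10; the submitters' processing notes name version 8.0.1. Barcodes were kept from 500 genes and 250 UMIs upwards when no more than 30% of UMIs were mitochondrial (4285 WT, 3464 KO). Scrublet (scanpy 1.11.5) gave doublet scores; as its threshold marked 1 and 4 barcodes, the highest scores at 0.4% per 1000 barcodes (98 and 73) were left out. Seurat 5.3.0 gave log-normalized values for CCA integration, S and G2M regression, 30 dimensions, k = 20 and resolution 0.8; the members, other apoptosis genes and sex-linked genes were not used as features. Clusters were named from marker lists (at least 3 markers in at least 25% of cells). UMIs were summed per class and library and divided by their total (CPM), with exact Poisson, binomial and conditional binomial 95% intervals. Library totals were 67968938 (WT) and 61555917 (KO) UMIs, which limit precision for rare classes. Named genes were the 10 members, *Bcl2a1d*, *Lyve1*, apoptosis genes past 1.5-fold in any class, the leading gene of each list and the 3 genes closest to each member. The members and lists were chosen with earlier results of these data known. The scripts were tested on simulated data.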

Additional observations from a re-analysis of the deposited data

Results flagged for a closer look

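Several ratios of KO over WT had opposite directions in different classes, and with 1 library per genotype the differences between classes were not tested. *Bcl2* was lower in T cell-like cells (0.622) and higher in thymocyte-like cells (1.59). *Bcl2a1b* was lower in neutrophil-like cells (0.460) and higher in the Nkg7-led cluster (1.69). *Bcl2l11* was lower in neutrophil-like cells (0.523) and higher in the Saa3-led cluster (1.83). Without the cell with most UMIs in each library, *Bcl2* in thymocyte-like cells was at 1.09 and *Bcl2a1b* in the Nkg7-led cluster at 1.36. *Bcl2l11* in the Saa3-led cluster was at 1.80 and *Bcl2* in T cell-like cells at 0.653 in that setting. Within the largest neutrophil-like cluster the ratio was 1.06 for *Bcl2a1b* and 0.927 for *Bcl2l11*.

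Other ratios lay on opposite sides of 1 in male and female cells, also without a test. For *Bcl2* they were 1.06 in male and 0.413 in female T cell-like cells, and 0.836 in male and 2.04 in female thymocyte-like cells. For *Bcl2l11* they were 0.449 in male and 1.01 in female T cell-like cells, and 0.551 in male and 1.08 in female neutrophil-like cells. In neutrophil-like cells *Bcl2a1a* had 0.497 in male and 2.31 in female cells, the latter from 12 WT and 40 KO UMIs, and *Bcl2a1b* had 0.394 in male and 1.03 in female cells. Of the neutrophil-like cells, 41 WT and 14 KO male cells were in the Acod1-led cluster, against 4 WT and 6 KO female cells.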

How the results depend on the processing

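No paired analysis was possible because each genotype has 1 library. The count of 13 of 101 pairs past 1.5-fold became 8 of 101 with 10 CPM added to both sides. It became 8 of 97 without the cell with most UMIs of the gene. Under the other alternatives it lay between 9 (of 94) and 18 (of 118). The pairs counted ranged from 67 in female cells to 118 without the UMI minimum, and shares over all genes were not computed for the alternatives. Of the alternatives, 2 were chosen after seeing the data (without the clusters of reduced depth, 13 of 99, and within the largest cluster of each class, 11 of 93). Of the 13 pairs, *Bcl2l11* in the Saa3-led cluster was past 1.5-fold under all 13 alternatives given as a ratio (1.71 to 2.06). Not all of these could test it, because this group is a single cluster of deep cells. Its ratio stayed at the main value of 1.83 without the UMI minimum, without clusters of reduced depth and within the largest cluster. Stricter limits on cells left it at 1.83 too. Ratios reversed in male cells for *Bcl2* in T cell-like (1.06) and thymocyte-like cells (0.836), in female cells for *Bcl2l11* in T cell-like (1.01) and for *Bcl2a1a* (2.31), *Bcl2a1b* (1.03) and *Bcl2l11* (1.08) in neutrophil-like cells, and in the largest neutrophil-like cluster for *Bcl2a1a* (1.07) and *Bcl2a1b* (1.06). As a difference of mean log-normalized values, *Bcl2a1b* in classical monocyte-like cells reversed (-0.00802) and the other 12 pairs did not. The pairs with thinned intervals apart were 1 at 3700 and 2 at 1000 UMIs, counted for the members alone and without a share over all genes. Without cell-cycle regression no cluster was named CCR2+ macrophage-like. The Nkg7-led cluster was compared in the main clustering alone, so its *Bcl2a1b* ratio was followed under 9 alternatives and under no other clustering. The median ratio of genes per class, as another scale, was 0.94 to 1.03.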
